A study of Mus musculus with 2 samples.

Results

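The genes described here are 37 genes of glycolysis, of lactate formation and export, and of the entry of pyruvate into mitochondria. They were listed by name and role, with earlier results of these data known, and each was read from its brightest probe after the probes' RefSeq accessions had been matched to gene symbols. On both arrays all 37 had a signal well above background and none was saturated, which held for 14176 of the 20887 genes named (67.9%). The cells were mouse cavernous pericytes, the contractile cells wrapped around small vessels, taken as primary cultures from penile cavernous tissue of C57BL/6 mice and grown in DMEM with 20% fetal bovine serum, penicillin and streptomycin, and human pigment epithelium-derived factor, in both conditions. One group was kept in high glucose, labelled 30 mmol, and the other in normal glucose, labelled 5 mmol, both for 72 h. Each condition was read on 1 Agilent 1-colour expression array, which carried a pool of RNA from 3 samples. The labels give the glucose amounts without a volume, and do not say whether the pooled samples came from separate animals.

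With 1 array per condition there was no replicate check and no test. Each difference below is between these 2 pools, and in such bulk RNA fewer cells of a type and less RNA per cell cannot be told apart. The ratio given for a gene is the log2 of its high glucose signal over its normal glucose signal after each array's 75th percentile was subtracted. That percentile stood at 733 on the high glucose array and 774 on the normal glucose array, so a gene with a log2 ratio of 0 has a high glucose signal 0.946 times its normal glucose signal. Signals below are the scanner software's processed signals, before this scaling. They belong to single probes and were not compared between genes.

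On the arrays as a whole, 57.6% of gene spots were well above background in high glucose and 56.3% in normal glucose, with no saturated gene spot, and both arrays lay on 1 slide. Of 14 pericyte markers 12 were measured, 6 higher and 6 lower, with a median log2 ratio of -0.05. Among these, Rgs5, Abcc9, Higd1b and Art3 were dim, at a spot SD of 0.25. Kcnj8 and Vtn were not well above background. Pdgfrb had 18161 in high glucose and 17471 in normal glucose (0.14), and Cspg4 had 7760 in high glucose and 9453 in normal glucose (-0.20). All 7 smooth muscle markers were measured, each with a ratio above 0 and a median of 0.07. The ratios of Acta2 and Tagln, both 0.02, were below their spot SD of 0.032, and Myh11 and Lmod1 had a spot SD of 0.10. Signs of these markers under other centrings were not read. Fibroblast markers, 8 of 9, had a median of -0.12, with 2 above 0 and 6 below. Fap had 2741 in high glucose and 3755 in normal glucose (-0.37), a larger difference than that of any of the 37 genes. Dcn had 70621 in high glucose and 84384 in normal glucose (-0.18), and Col3a1 had -0.18. Clec3b (-0.50) was dim, at a spot SD of 0.25. The lists alone cannot tell these cell types apart. Of 9 endothelial markers Kdr had 7075 in high glucose and 7379 in normal glucose (0.02), against a second measured probe at -0.27. Pecam1 and Vwf were measured with dim signals, and Cdh5, Tek, Emcn, Cldn5, Erg and Tie1 were not well above background. Of 8 immune markers 7 were measured, each with a ratio above 0 by its brightest probe and a median of 0.20. The measured probes of Csf1r ran from -0.14 to 0.12. Ptprc and Aif1 were dim, with ratios below the spot SD of 0.25, and Cd68 had no matched probe. All 5 measured Schwann cell markers of 6 had a ratio below 0, with a median of -0.06. Of these Cdh19 (-0.75) and Mal (-0.91) were dim, at a spot SD of 0.25, and the -0.04 of Sox10 was below its spot SD of 0.10. The 3 measured epithelial markers of 6 were dim, with a median of 0.32 at a spot SD of 0.25. Of 4 adipocyte markers Fabp4 had 0.26 and Lpl -0.27, while Adipoq and Plin1 were not well above background. The part of other cells in the ratios of the 37 genes was not tested.

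Glycolysis splits glucose into pyruvate in the cytosol, with the steps of hexokinase, phosphofructokinase and pyruvate kinase as its main points of control. Pyruvate is then either reduced to lactate and exported with a proton, or oxidised by the pyruvate dehydrogenase complex in mitochondria, which PDH kinases switch off. Vascular smooth muscle, a relative of pericytes, is known to make lactate even with oxygen present. Many of these genes are known targets of hypoxia-inducible factor 1, which binds a short core motif in their promoters.

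Because the promoters are where such control is known to act, the 250 bases before the most upstream listed start are shown for 5 genes. Slc16a3 and Pkm were among the higher genes, Hk2 and Gpd2 among the lower ones, and Ldha codes for the enzyme between pyruvate kinase and the lactate exporter. Sequences are from RefSeq on build GRCm38.p6, written 5′ to 3′ on the gene's own strand. Capitals mark the hypoxia response core ACGTG on either strand, including where it lies within the E-box CACGTG, the palindromic site of MYC. The windows are chr11:120948817-120949066 on the + strand for Slc16a3, chr9:59656326-59656575 on the + strand for Pkm and chr7:46845554-46845803 on the + strand for Ldha. That of Hk2 is chr6:82774455-82774704 on the - strand and that of Gpd2 chr2:57237428-57237677 on the + strand.
Slc16a3: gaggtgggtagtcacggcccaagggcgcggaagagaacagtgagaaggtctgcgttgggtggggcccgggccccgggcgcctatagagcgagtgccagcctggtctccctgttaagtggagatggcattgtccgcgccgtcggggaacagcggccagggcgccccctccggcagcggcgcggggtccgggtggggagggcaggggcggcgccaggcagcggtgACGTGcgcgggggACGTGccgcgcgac
Pkm: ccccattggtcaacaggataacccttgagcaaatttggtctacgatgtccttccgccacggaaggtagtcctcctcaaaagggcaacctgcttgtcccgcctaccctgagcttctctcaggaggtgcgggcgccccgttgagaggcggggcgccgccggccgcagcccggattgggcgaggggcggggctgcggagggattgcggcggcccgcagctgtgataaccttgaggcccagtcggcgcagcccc
Ldha: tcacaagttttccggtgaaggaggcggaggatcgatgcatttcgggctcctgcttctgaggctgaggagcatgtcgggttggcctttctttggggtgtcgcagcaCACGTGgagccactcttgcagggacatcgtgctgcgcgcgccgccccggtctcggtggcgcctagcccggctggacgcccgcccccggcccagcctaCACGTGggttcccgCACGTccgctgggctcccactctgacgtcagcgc
Hk2: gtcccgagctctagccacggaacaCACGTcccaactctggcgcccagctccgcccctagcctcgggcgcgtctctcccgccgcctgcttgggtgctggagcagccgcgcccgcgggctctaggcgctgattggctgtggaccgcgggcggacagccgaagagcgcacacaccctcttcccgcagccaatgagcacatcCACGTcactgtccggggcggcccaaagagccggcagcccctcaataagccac
Gpd2: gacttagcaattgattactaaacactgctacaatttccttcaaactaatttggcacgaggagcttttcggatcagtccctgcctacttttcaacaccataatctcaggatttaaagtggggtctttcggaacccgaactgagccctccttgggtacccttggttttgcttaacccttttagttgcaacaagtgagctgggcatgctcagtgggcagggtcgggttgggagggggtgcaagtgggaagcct

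The Slc16a3 window holds 2 cores, 27 and 14 bases before the start, and no E-box. The Ldha window holds 3 cores, the first 145 and the last 34 bases before the start, and 2 of them are E-boxes. In Hk2 there are 2 cores, 226 and 52 bases before the start. The printed Pkm and Gpd2 windows hold none, and the window of the second listed start of each gene holds 1. For Ldha the window of the second listed start holds no core and no E-box. Promoters were listed for 36 of the 37 genes, and 17 of these (47.2%) had the core before at least 1 start, against 20.0% of 17492 protein-coding genes. An E-box was found in 7 genes (19.4%), against 7.61% of protein-coding genes. Counted per listed start, the core was present before 21 of 56 starts (37.5%), against 17.8% of the starts of protein-coding genes and 16.6% of all 32851 starts. These shares describe letters and not sites of binding, and genes with the core were both higher (Slc16a3) and lower (Hk2) in high glucose.

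The 37 genes differed little between the pools. Their log2 ratios lay between -0.26 for Gpd2 and 0.19 for Bpgm, with an SD of 0.10 over genes and a median of 0.04, beside a median of -0.01 over all measured genes. None of the 37 reached 1.2-fold higher, where 6.8% of measured genes did, and none reached 1.2-fold lower, where 5.51% did. No gene of the group was 2-fold different, beside 0.917% of all measured genes. Bright genes varied less on these arrays, and 26 of the 37 lay above the median measured gene in level. Among genes above that median 2.06% were at least 1.2-fold higher and 1.07% at least 1.2-fold lower, beside none of these 26.

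At a lower threshold of 1.1-fold, chosen after the values were seen, 4 genes were higher and 3 lower. The higher genes were Bpgm, Slc16a3, Pkm and Pfkfb3, and the lower ones Gpd2, Gpd1 and Hk2. Among all measured genes 14.6% were at least 1.1-fold higher and 14.3% at least 1.1-fold lower, so the shares of the 37, 10.8% and 8.11%, lay below the background. Counted among genes above the median level, the shares were 15.4% of the 26 members there, against 6.59% of all such genes, for higher values. For lower values they were 7.69% of the members, against 6.55% of all such genes. With so few members these shares rest on 4 and 2 genes.

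**Figure D1:**
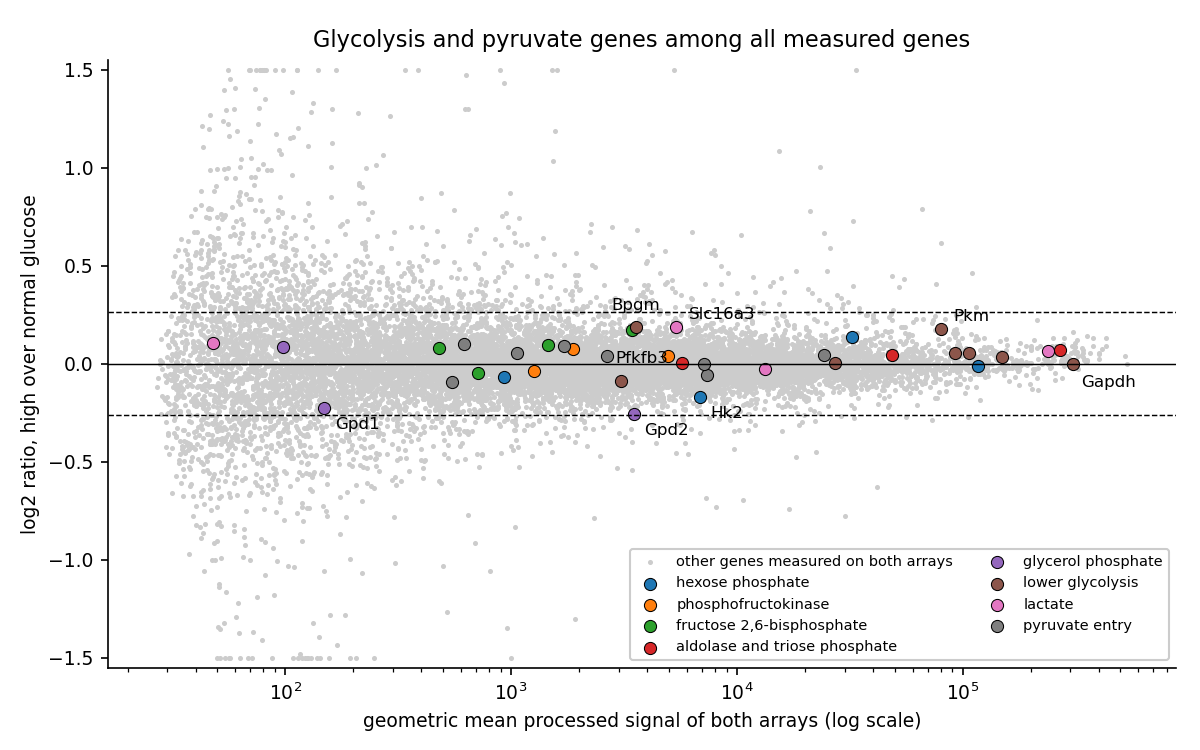
Log2 ratio of high over normal glucose for each measured gene against its geometric mean processed signal on a log axis, with the 37 genes coloured by step and other genes in grey. Dashed lines mark 1.2-fold and grey points beyond 1.5 are drawn at 1.5. All coloured points lie inside the dashed lines, with Gpd2 at -0.26 closest to them.

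The error of a spot was read from probes printed 10 times on each array. In 4 bands of signal, from the brightest to the dimmest, the median SD of a spot's log2 ratio was 0.032, 0.044, 0.10 and 0.25. The bands held 19, 14, 2 and 2 of the 37 genes, the brightest reaching down to Pfkm and the dimmest holding Slc16a1 and Gpd1l. Of the 37 ratios, 13 (35.1%) lay more than 2 such SDs from the median ratio of all genes of their band, 10 above and 3 below, while 34.02% of all measured genes did. These SDs cover spots on an array only, not probes, hybridisations or pools.

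Pfkm, the muscle-type subunit of phosphofructokinase, was printed 10 times and gives this error directly. Its processed signals in high glucose ran from 4727 over a median of 4876 to 5081, and in normal glucose from 4788 over 5031 to 5213. On the scaled log2 level the spots averaged 2.74 ± 0.04 in high glucose and 2.70 ± 0.04 in normal glucose (SD, 10 spots each), so the spots of both arrays overlapped. The ratio was positive for 9 of the 10 spots, with a mean of 0.04 ± 0.04 and a range from -0.05 to 0.09. Centring each array on its median turned it to -0.02.

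**Figure D2:**
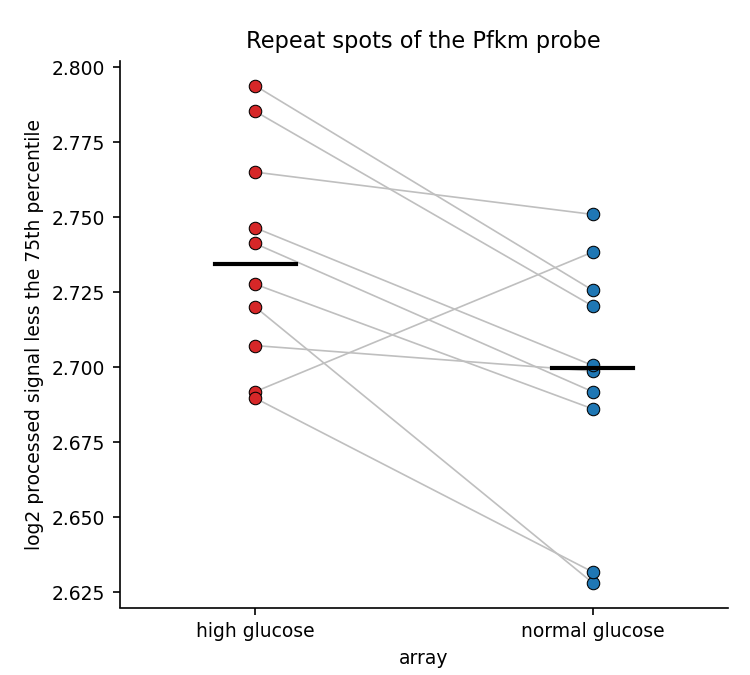
Scaled log2 level of each of the 10 spots of the Pfkm probe on the high and the normal glucose array, with lines joining the same spot position and bars at the median. The clouds overlap, and 9 of 10 lines slope down towards normal glucose, a mean difference of 0.04.

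At the entry step the hexokinases moved apart. Hk1, the ubiquitous hexokinase bound to mitochondria, had a signal of 32815 in high glucose and 31572 in normal glucose, a log2 ratio of 0.14. Its second probe, with a lower signal, gave 0.19. Hk2, the inducible hexokinase of muscle and fat, had 6270 in high glucose and 7462 in normal glucose, 1.13-fold lower (log2 ratio -0.17). Only 3.01% of genes of its signal band had a lower ratio, and measured neighbours of its spot had a median of -0.07. Hk2 rested on 1 probe printed once, so no second probe checked its ratio, and spot SDs do not cover differences between probes. The difference between Hk1 and Hk2 in log2 ratio was 0.31, or 1.24-fold, which no scaling of a whole array can change. Several settings shift both genes alike or repeat their values, and so could not change this difference. Over the others it ran from 0.29 to 0.34, with a combined spot SD of 0.045.

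Gpi1, the isomerase between glucose and fructose phosphates, had 113166 in high glucose and 120432 in normal glucose, a log2 ratio of -0.01. Its 3 probes lay between -0.01 and 0.03. Pgm2, whose human counterpart acts mainly on pentose phosphates, had 885 in high glucose and 979 in normal glucose and a log2 ratio of -0.07. It stayed negative under each of the 11 alternatives that kept it.

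Among phosphofructokinase subunits, which carry the first committed step, ratios were small. Pfkl, the liver-type subunit, had 1884 in high glucose and 1892 in normal glucose, with a log2 ratio of 0.07. Pfkp, the platelet-type subunit, had 1212 in high glucose and 1315 in normal glucose, with -0.04 and a second probe at -0.01. The widest difference in the family, Pfkl minus Pfkp, was 0.11 with a combined spot SD of 0.062.

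The PFKFB enzymes make and break the fructose bisphosphate that activates phosphofructokinase, and Pfkfb3 is the isozyme in which the making activity prevails most. Pfkfb3 had 3542 in high glucose and 3323 in normal glucose, 1.13-fold higher (log2 ratio 0.17). Its second probe was well above background on the normal glucose array only. Pfkfb4 had 1463 in high glucose and 1449 in normal glucose (0.09). Pfkfb1, the liver and muscle isozyme, had 477.5 in high glucose and 476.9 in normal glucose (0.08). Pfkfb2, the heart isozyme, lay on the other side of 0 with 684 in high glucose and 748.5 in normal glucose (-0.05). Pfkfb3 minus Pfkfb2 was 0.22, from 0.18 to 0.23 over all settings, and no other pair of PFKFB isozymes differed more.

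**Figure D3:**
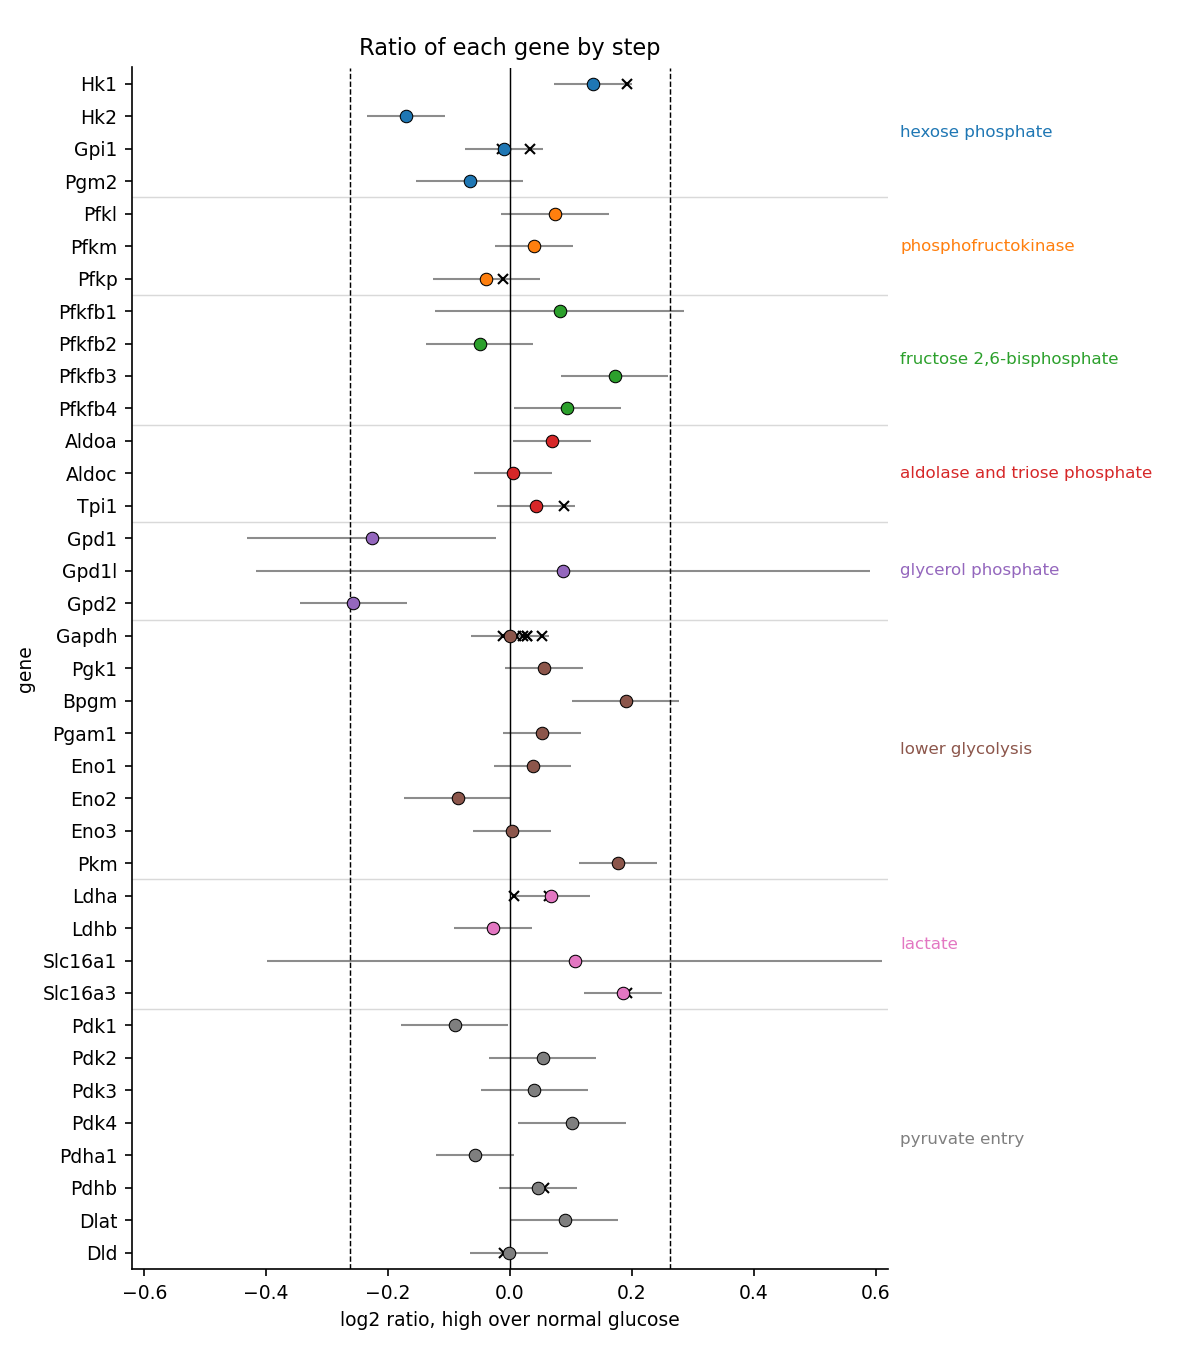
Log2 ratio of high over normal glucose for the brightest probe of each gene (circles, coloured by step), with bars of 2 repeat-spot SDs of the gene's signal band and further measured probes as crosses. Dashed lines mark 1.2-fold. Hk1 and Hk2 lie on opposite sides of 0, Gpd2 and Gpd1 lie lowest, and Bpgm, Slc16a3, Pkm and Pfkfb3 highest.

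Aldolase and triose phosphate isomerase barely differed. Aldoa, the main aldolase of muscle and most cells, had 268521 in high glucose and 270504 in normal glucose, a log2 ratio of 0.07. Aldoc, the brain-type aldolase, had 5588 in high glucose and 5886 in normal glucose and a ratio of 0.005, whose sign turned in 3 of 12 alternatives. Tpi1, which interconverts the triose phosphates, had 48048 in high glucose and 49294 in normal glucose (0.04), with a further probe at 0.09.

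The lowest ratios of the 37 were those of Gpd2 and Gpd1, glycerol phosphate enzymes, which branch off at the triose phosphates and carry reducing power from cytosolic NADH to mitochondria. Gpd2, the mitochondrial enzyme of this shuttle, had 3102 in high glucose and 3918 in normal glucose, 1.19-fold lower (log2 ratio -0.26). Of genes in its signal band 2.42% had a lower ratio, while measured neighbours of its spot had a median of 0.06, on the other side of 0. Gpd1, its cytosolic partner, had 134 in high glucose and 166 in normal glucose, 1.17-fold lower (-0.23), with a spot SD of 0.10 at this signal. Each rested on 1 probe. Both passed 1.2-fold lower when arrays were centred on their medians, at -0.32 for Gpd2 and -0.29 for Gpd1. Gpd1l, a Gpd1-like cytosolic enzyme, had dim signals of 97.5 in high glucose and 97.0 in normal glucose, with a ratio of 0.09 and a spot SD of 0.25, and so could not be set apart from 0 or from Gpd2.

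In lower glycolysis, 7 of 8 genes had a ratio above 0, and 5 of these ratios were below 2 spot SDs. Gapdh, often used as a reference gene, was represented by 7 probes. The brightest had 300533 in high glucose and 317588 in normal glucose and a ratio of 0.00, and all 7 lay between -0.01 and 0.05. Pgk1, which makes the first ATP of this stretch, had 91685 in high glucose and 93193 in normal glucose (0.06), and Pgam1, the phosphoglycerate mutase, 105639 in high glucose and 107666 in normal glucose (0.05). The ratios of Pgk1 and Pgam1 turned negative with median centring, and that of Pgk1 also in 2 further settings.

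Enolase, which forms phosphoenolpyruvate, was read from 3 genes. Eno1, the ubiquitous form, had 146595 in high glucose and 151025 in normal glucose (0.04). Eno1b, a near-identical copy outside the 37, had 146282 in high glucose and 151468 in normal glucose (0.03), and whether their probes tell the transcripts apart was not tested. Eno3, the muscle form, had 26409 in high glucose and 27849 in normal glucose (0.003). Eno2, the neuronal form, had 2898 in high glucose and 3251 in normal glucose, with a ratio of -0.09 that stayed below 0 under every setting. Eno1 minus Eno2 was 0.12, with a combined spot SD of 0.054.

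The highest ratios of this stretch were those of Bpgm and Pkm. Bpgm makes bisphosphoglycerate, chiefly known as the regulator of haemoglobin in red cells, and is a side branch next to Pgk1. It had 3724 in high glucose and 3451 in normal glucose, 1.14-fold higher (log2 ratio 0.19). Pkm, pyruvate kinase, which forms pyruvate and ATP, had 83203 in high glucose and 77744 in normal glucose, 1.13-fold higher (0.18). This was 5.57 times the spot SD, and 96.5% of genes in its signal band had a lower ratio. One probe represented Pkm, and the splice forms PKM1 and PKM2 were not told apart here.

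For lactate, the exporter differed more than the enzymes. Slc16a3, the transporter MCT4 that exports lactate from glycolytic cells, had 5573 in high glucose and 5179 in normal glucose, 1.14-fold higher (log2 ratio 0.19). Its second probe had 5200 in high glucose and 4812 in normal glucose and gave 0.19 as well. It was one of 9 genes with several measured probes, of which 7 had all probes of 1 sign. The measured probes of such a gene differed by 0.06 at most. Under all 12 alternatives Slc16a3 stayed between 0.12 and 0.20.

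Ldha, the lactate dehydrogenase subunit that favours lactate formation, had 237707 in high glucose and 239834 in normal glucose (0.07), with its other probes at 0.06 and 0.01. Ldhb, the subunit of oxidative tissue, had 12828 in high glucose and 13822 in normal glucose (-0.03), and turned positive with median pixel minus local background. Ldha minus Ldhb was 0.09, with a combined spot SD of 0.045. Slc16a1, the transporter MCT1, was the dimmest of the 37 with 48.1 in high glucose and 47.2 in normal glucose, so its ratio of 0.11 was below the spot SD of 0.25. Slc16a3 minus Slc16a1 was 0.08 and within that error.

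**Figure D4:**
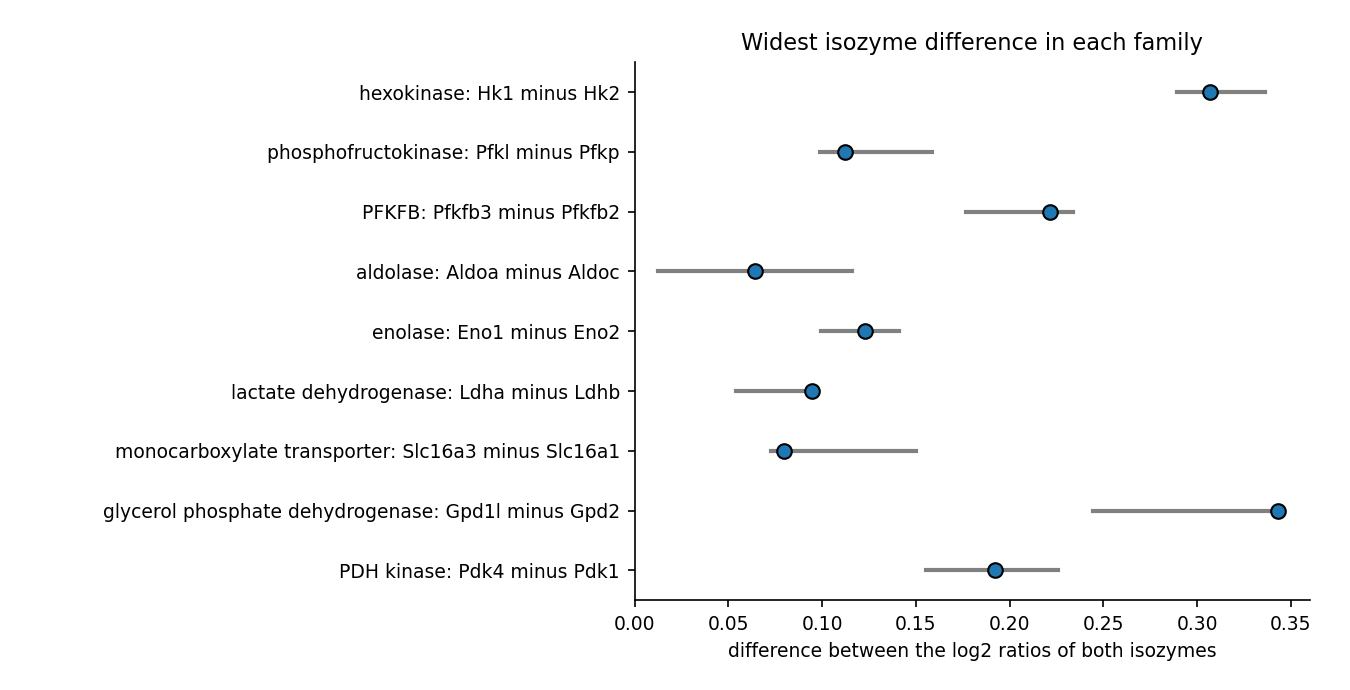
Widest difference between the log2 ratios of related genes in 9 families (points), with lines spanning all settings. Settings that shift both genes alike cannot change a difference. The hexokinase pair lies at 0.31 with a span from 0.29 to 0.34, while the 0.34 of the glycerol phosphate dehydrogenases rests on the dim gene Gpd1l.

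Among the gatekeepers of pyruvate entry the PDH kinases, which phosphorylate and inactivate the complex, differed in sign. Pdk4, the kinase of fasted muscle, had 621 in high glucose and 611 in normal glucose (0.10). Pdk2, the widespread form, had 1048 in high glucose and 1068 in normal glucose (0.05), and Pdk3 had 2625 in high glucose and 2699 in normal glucose (0.04). Pdk1 had 515 in high glucose and 580 in normal glucose (-0.09), and its ratio was negative in each alternative that kept it. Pdk4 minus Pdk1 was 0.19, from 0.16 to 0.23 over all settings, with a combined spot SD of 0.062.

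The subunits of the complex itself were nearly level. Pdha1 and Pdhb form the decarboxylating enzyme. Pdha1 had 7005 in high glucose and 7701 in normal glucose (-0.06), and Pdhb had 24125 in high glucose and 24691 in normal glucose (0.05), with a second probe at 0.06. Dlat, the acetyl transferase core, had 1728 in high glucose and 1717 in normal glucose (0.09). Dld, the dehydrogenase shared with other complexes, had 6960 in high glucose and 7367 in normal glucose (-0.002), against a second probe at -0.01. Pdha1 turned positive, and Pdhb negative, in 1 of 12 alternatives each.

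Further genes of the pathway, 48 in 8 lists of other isozymes, transporters, partners and regulators, were read in the same way. Of these 36 were measured on both arrays and 12 were not well above background on either. Their median log2 ratio was 0.03, with 5 genes at least 1.2-fold higher and 1 at least 1.2-fold lower by the brightest probe, where 6.8% and 5.51% of all measured genes were. For 2 of the 5, Arnt and Mlxipl, a second probe did not show this. The others, Slc2a1, Hkdc1 and Eno4, had 1 probe each and so no such check. Isozymes of liver, testis and gluconeogenesis were among those not above background, including Pklr, Ldhc, Pgk2, Fbp1 and Pck1.

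Slc2a1, the glucose transporter GLUT1 that feeds the pathway, had 25209 in high glucose and 21262 in normal glucose, 1.25-fold higher (log2 ratio 0.33). Its ratio, read from 1 probe, exceeded that of every one of the 37 genes. Values of single genes under the alternative settings were read for the 37 only. Hkdc1, a hexokinase-domain protein, had 324 in high glucose and 263 in normal glucose, 1.30-fold higher. Eno4, a sperm enolase, had 119 in high glucose and 63.2 in normal glucose, 1.98-fold higher, at signals where the spot SD was 0.25. Gckr, the glucokinase regulator, had 29.9 in high glucose and 43.2 in normal glucose, 1.37-fold lower, also a dim signal.

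Of 7 transcription factors of the pathway, Arnt and Mlxipl passed 1.2-fold. Arnt, the partner of hypoxia-inducible factors, had 4267 in high glucose and 3559 in normal glucose (0.34), but its second probe gave 0.003. Mlxipl, which codes for ChREBP, had 5704 in high glucose and 4931 in normal glucose (0.29), against a second probe at -0.11. For both genes the measured probes lay further apart than those of any of the 37. Hif1a, read from 1 probe, had 9675 in high glucose and 9313 in normal glucose (0.13). Mlx, the partner of ChREBP, had 2013 in high glucose and 2439 in normal glucose, with a ratio below 0 (-0.20). Mlxip had 0.14, Myc -0.04 and Epas1 -0.08, with the measured probes of Epas1 reaching up to 0.26.

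In the remaining lists no gene passed 1.2-fold by its brightest probe. Pcx, pyruvate carboxylase, was highest among phosphatases and gluconeogenic enzymes with 0.20, and Pck2 lowest with -0.15. Mpc1 and Mpc2, the mitochondrial pyruvate carrier, had -0.01 and -0.002, while Pdp1, the phosphatase that reactivates the complex, had -0.11. Among monocarboxylate transporters Slc16a7 had 0.18 and Slc16a8 had -0.24 from dim signals of 77.6 in high glucose and 96.7 in normal glucose. Pgm1, the phosphoglucomutase that links glycogen to glycolysis, had 0.08, and Pgm5 -0.17. Bsg, the chaperone of lactate transporters, had 17348 in high glucose and 18227 in normal glucose (0.01).

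Of the 37 ratios 23 had 1 sign under each alternative setting that kept the gene (11 or 12 of 12), 14 above 0 and 9 below. Some of these settings repeat the main values and could not turn a sign. The other 14, among them Gapdh, Pgk1, Pgam1, Eno1, Eno3, Tpi1 and Pfkm, turned under at least 1. Whether a small ratio lay above or below 0 depended most on the centring: 25 of 37 were above 0 with the 75th percentile, and 14 of 37 with median centring. The median of the 37 less the median of all measured genes was 0.05 under both, which is fixed, since median centring shifts every ratio alike. Over the other settings this difference ran from 0.040 with normexp to 0.079 without the dim filter. Hk1, Pfkfb3, Bpgm, Pkm and Slc16a3 stayed at 0.075 or above in each setting, and Hk2, Gpd1 and Gpd2 at -0.15 or below.

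**Figure D5:**
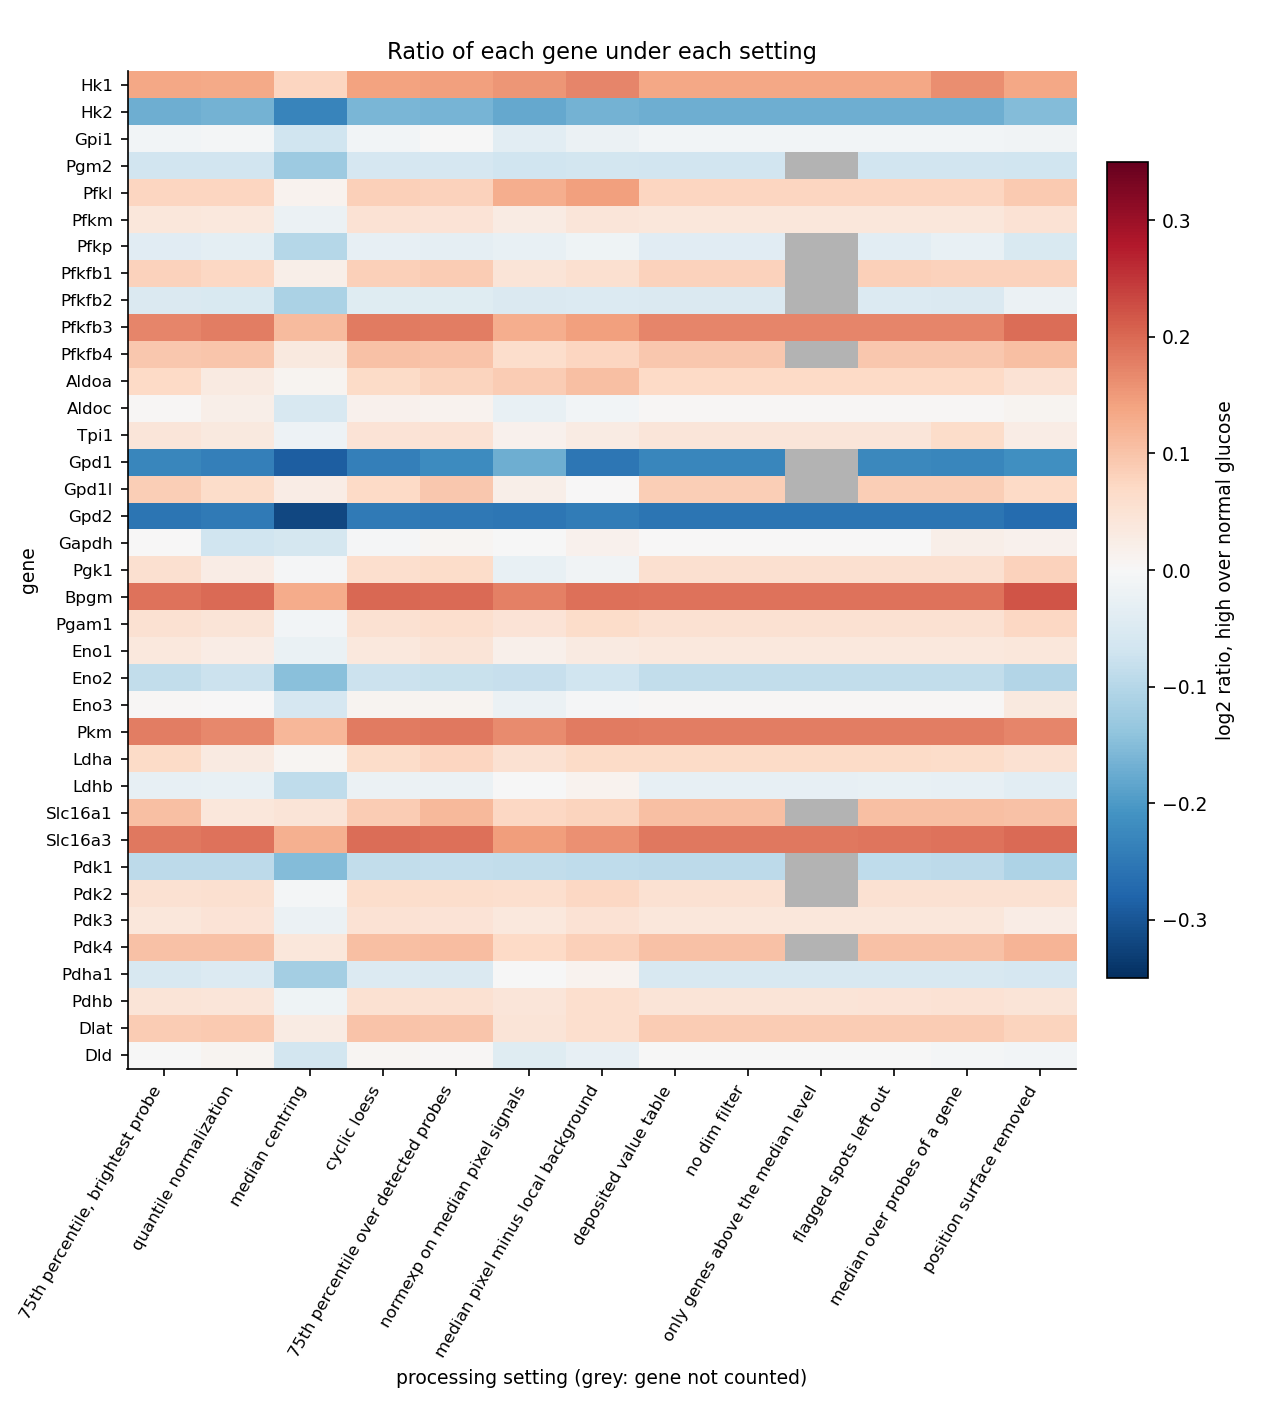
Log2 ratio of high over normal glucose of each of the 37 genes (down) under each processing setting (across), red above and blue below 0, grey where a gene was left out. Gpd2, Gpd1 and Hk2 stay blue and Bpgm, Slc16a3, Pkm, Pfkfb3 and Hk1 stay red, while the median centring column is shifted towards blue.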

How the data were processed

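Expression was measured in 2 pools, 1 array each, and groups were taken from the labels. The deposited files hold linear intensity values made with Feature Extraction 11.5.1.1, per the file headers, while version 9.3.2.1 is given by the submitters' processing notes. The processed signal used here is background-subtracted and spatially detrended within the array, per the file headers. The 0 or 1 spot flags, used as other values, are deposited there too. The authors' deposited value table matched this signal for 55249 of 55249 single-spot probes within a relative tolerance of 0.0001, so its scale, centring and direction are known. Its column medians were 48.9 for high and 49.6 for normal glucose.

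Control spots (3671) were left out. The log2 signal of 59305 gene spots was averaged per probe, and the 75th percentile of all probes on an array was then taken off. Of 55681 probes 27509 were named through unversioned RefSeq accessions (GRCm38.p6 table), and the brightest probe represented a gene. A probe counted as measured when at least 0.5 of its spots were well above background on both arrays. The array design names build mm9, so probe positions are not given. Promoters were searched in 250 bases before each listed start. Neighbours are spots within 3 rows and columns.

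Counts at 1.2-fold and 2-fold, and at 1.1-fold (chosen after the data were seen), replace tests, with 1 array per condition; all members are named, and other pathway genes past 1.2-fold or the 2 largest of a list. Members and lists were chosen with earlier results of these data known. Counting was tested on simulated data, with changes of more than 2-fold and the same spot error at all signals. Recovery of 1.1-fold or 1.2-fold changes was not tested. Values were computed with Python 3.11.15, and normexp, quantile and loess values with R 4.3.3 and limma 3.58.1. Alternatives were 4 other scalings, 2 background corrections, the deposited table, other filters on dim or outlying spots, the median probe and a fitted position surface. The number of arrays limits the precision.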

Additional observations from a re-analysis of the deposited data

How the results depend on the processing

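Of the 12 alternatives 11 were planned and 1 was chosen after seeing the data, normexp with an offset of 50 on median pixel signals, in place of the planned version on mean pixel signals, which was not run since that column was not analysed here. Counts at 1.1-fold were also added after seeing the data. With median centring, the median log2 ratio of the 37 genes was -0.018 in place of 0.043, 2 genes in place of 0 were at least 1.2-fold lower (Gpd1 and Gpd2), 0 in place of 4 at least 1.1-fold higher and 5 in place of 3 at least 1.1-fold lower. This centring lowers every ratio alike. With a position surface removed, 1 gene (Gpd2) was at least 1.2-fold lower. Elsewhere the median ran from 0.021 with normexp to 0.051, and none of the 37 passed 2-fold under any alternative. Of 433 single-gene values recomputed, 48 moved by the spot SD or more, 33 of them with median centring. Many of the 433 could not move. Both settings of the dim filter repeated the main value of each gene they kept, and the deposited table did so for all but Pfkm. Leaving out flagged spots shifted the ratios very little and nearly alike. The median probe could not change the 28 genes with 1 measured probe. No paired analysis was possible because each condition has 1 array. Dim signals limit Slc16a1, Gpd1l and Gpd1, whose spot SDs were 0.25, 0.25 and 0.10.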

Other observations

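Outside the 37 genes, some second probes of pathway genes departed widely from the brightest one. Adpgk, an ADP-dependent glucokinase, had 2070 in high glucose and 2272 in normal glucose with a log2 ratio of -0.05, and 2.47 from its other measured probe. Pgm3, a phosphoglucomutase of hexosamine synthesis, had 3526 in high glucose and 3647 in normal glucose with 0.03, and -0.93 from its other measured probe. These genes were chosen after their values were seen, and the source of the disagreement was not tested.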
